A study of Homo sapiens with 6 samples.

Results

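The receptor tyrosine kinase gene KIT (Entrez gene 3815, chromosome 4) and KITLG (Entrez gene 4254, chromosome 12), which encodes its ligand stem cell factor, were followed in polyadenylated RNA of A549 cells, a human lung adenocarcinoma line. They are 2 of 20824 genes listed in any of the deposited files. The pair was chosen by its levels in these libraries, which were known to be higher after the knockdown, so its values in this comparison are given as a description, with no test. The groups were A549 cells with an shRNA against C19orf12 (knockdown, 3 libraries) and A549 cells with a scrambled shRNA, which serve as the wild-type control (scramble, 3 libraries). All libraries thus come from 1 cell line, and all carried an shRNA. C19orf12 encodes a membrane protein of mitochondria and the endoplasmic reticulum. The effect of lowering C19orf12 and any other effect of that shRNA cannot be told apart in this design. Nothing in the labels says that replicates came from separate cultures, so every p-value below rests on library-to-library spread, which may be technical.

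Binding of KITLG brings receptors together, and the kinase domains of KIT then phosphorylate each other and recruit adaptors that switch on the PI3K and AKT, RAS and ERK, SRC family and STAT branches. KIT is known for its role in blood progenitors, mast cells, melanocytes, germ cells and the pacemaker cells of the gut, and in the lung it is known from mast cells and from small cell carcinoma, in which receptor and ligand are often made together. KITLG is made as a membrane protein by epithelial, stromal and endothelial cells and can be shed by proteases.

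Both transcripts come in alternative coding forms, and these are shown because the deposited lengths bear on them. In KITLG the longer form holds an exon of 84 bases, exon 6, that the shorter form skips. This exon carries the main site at which the ligand is shed from the cell, so the longer form gives mostly soluble and the shorter mostly membrane-bound ligand. In KIT the longer form has 12 more bases at the 3′ end of exon 9, which add a short stretch to the part of the receptor just outside the membrane. The sequences are from GENCODE release 29 transcripts (GRCh38), with 24 bases of coding sequence on each side, and the bases found in the longer form alone are in capitals. The KITLG exon lies at chr12:88515534-88515617 on the minus strand and the KIT bases at chr4:54726039-54726050 on the plus strand.
KITLG exon 6: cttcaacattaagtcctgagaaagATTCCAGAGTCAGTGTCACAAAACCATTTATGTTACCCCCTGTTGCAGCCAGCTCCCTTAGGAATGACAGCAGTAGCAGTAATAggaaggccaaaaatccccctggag
KIT end of exon 9: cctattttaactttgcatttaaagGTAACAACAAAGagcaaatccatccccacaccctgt

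The sequences around the starts of the genes are shown because the RNA of both genes was higher in the same libraries. They run from 250 bases before to 50 bases after the gene start (RefSeq, GRCh38.p14), at chr4:54657707-54658006 on the plus strand for KIT and chr12:88580422-88580721 on the minus strand for KITLG. Capitals mark GGGCGG, the GC box bound by SP1, on either strand, and TATAAA, the TATA box.
KIT promoter: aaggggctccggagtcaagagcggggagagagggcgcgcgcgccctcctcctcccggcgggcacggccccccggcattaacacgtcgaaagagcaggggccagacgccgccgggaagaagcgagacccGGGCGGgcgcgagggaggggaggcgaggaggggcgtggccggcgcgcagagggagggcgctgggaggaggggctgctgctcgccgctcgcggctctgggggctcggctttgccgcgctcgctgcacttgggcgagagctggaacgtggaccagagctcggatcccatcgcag
KITLG promoter: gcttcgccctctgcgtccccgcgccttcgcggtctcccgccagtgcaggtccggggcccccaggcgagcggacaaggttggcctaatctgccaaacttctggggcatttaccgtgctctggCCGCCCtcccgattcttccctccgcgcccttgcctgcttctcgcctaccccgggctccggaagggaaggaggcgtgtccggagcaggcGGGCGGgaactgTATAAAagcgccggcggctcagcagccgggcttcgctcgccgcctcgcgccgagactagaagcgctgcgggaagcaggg
GGGCGG occurred at 1 place in the KIT window and at 2 places in the KITLG window, and 45% of 35116 promoter windows of this length hold it. TATAAA occurred in the KITLG window, 29 bases before the gene start (position -29), and not in the KIT window; 11.5% of the windows hold it. GCCNNNGGC, the motif of AP-2 factors, occurred at 1 place in KITLG and not in KIT (23.2% of windows). An E-box bound by MITF, CATGTG, was found in neither window, and 11.1% of windows hold it. The same was true of the E-box CACGTG (7.26% of windows) and of the motif GATAAG, which is bound by factors of the GATA family (6.36% of windows). Both strands were searched, and the sites found did not overlap each other. Both windows were rich in GC, at 74.3% for KIT and 69.7% for KITLG against a median of 58.7% over all windows, with 38 and 34 CpG pairs against a median of 14.

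Totals of estimated counts ran from 10229890 to 10647587 per library. C19orf12, the targeted gene, stood at 25.3 ± 1.08 CPM (counts scaled to library size, with TMM factors) in knockdown and 49.0 ± 12.4 CPM in scramble libraries (SD, n = 3 each), a log2 fold change of -0.95 (edgeR adjusted p = 0.015). That call was lost without knockdown replicate 1, 2 or 3 (adjusted p = 0.0908, 0.0755 and 0.0879). Scramble replicate 3 stood apart: across genes its log2 CPM correlated with those of the other scramble libraries at 0.952 and 0.953, whereas scramble replicates 1 and 2 correlated at 0.991. Scramble replicates 1 and 2 were closer to the knockdown libraries, at 0.9585 to 0.9602, than to scramble replicate 3. The values of scramble replicate 3 fell off with falling GC content of the transcripts, so results are given with and without this library. Of the genes checked for the label, the keratin genes KRT8 and KRT18 and the enzyme genes ALDH1A1, AKR1B10, AKR1C1 and AKR1C2, which are high in A549 cells, were at 1150 CPM or more in each library. KRT8 and KRT18 rose in knockdown cells (log2 fold changes 1.79 and 1.31, edgeR adjusted p = 0.000246 and 0.00135). The epithelial marker EPCAM was at 2.2 to 2.6 CPM in knockdown and 0.775 to 1.58 CPM in scramble libraries. SFTPC and NKX2-1, which mark alveolar cells, were under 1 CPM in each library.

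KIT RNA was near the limit of detection in scramble cells and well above it in knockdown cells. Its estimated counts were 171, 143 and 146 in knockdown replicates 1, 2 and 3 and 6, 2 and 1 in scramble replicates 1, 2 and 3. The levels were 17.1, 14.3 and 14.5 CPM in the knockdown libraries and 0.557, 0.186 and 0.0968 CPM in the scramble libraries. All 3 knockdown libraries lay above all 3 scramble libraries, and the lowest knockdown value was far above the highest scramble value. Means were 15.3 ± 1.57 CPM in knockdown and 0.28 ± 0.244 CPM in scramble libraries (SD, n = 3 each), and the fitted log2 fold change was 5.70 (SE 0.36). Over the summed counts, 460 in knockdown and 9 in scramble libraries, the ratio was 54.1, with an exact 95% interval from counting of 28.3 to 119. That interval covers counting error only. The fold rests on 9 scramble counts, 6 of them in replicate 1. Without scramble replicate 3 the ratio was 41.2 (20.7 to 95.9) and the log2 fold change 5.32, and without scramble replicate 1 the log2 fold change was 6.62. In bulk RNA, more cells with KIT RNA and more KIT RNA per cell cannot be told apart.

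KITLG was low in scramble cells, though above KIT, and was also higher in knockdown cells. Its estimated counts were 493, 504 and 449 in knockdown replicates 1, 2 and 3 and 75, 55 and 30 in scramble replicates 1, 2 and 3. The levels were 49.3, 50.3 and 44.6 CPM in the knockdown libraries and 6.97, 5.11 and 2.91 CPM in the scramble libraries. The groups did not overlap, and scramble replicate 3 was the lowest library for the ligand as it was for the receptor. Means were 48.1 ± 3.06 CPM in knockdown and 4.99 ± 2.03 CPM in scramble libraries (SD, n = 3 each). The fitted log2 fold change was 3.26 (SE 0.28), or 2.99 without scramble replicate 3. The ratio of summed counts, 1446 in knockdown and 160 in scramble libraries, was 9.57 (8.13 to 11.3), and it was 7.96 (6.65 to 9.61) without scramble replicate 3. Ordered by log2 fold change from the highest, KIT stood at place 4 and KITLG at place 76 of 14812 genes tested. Without scramble replicate 3 they stood at places 16 and 101 of 15029.

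**Figure D1:**
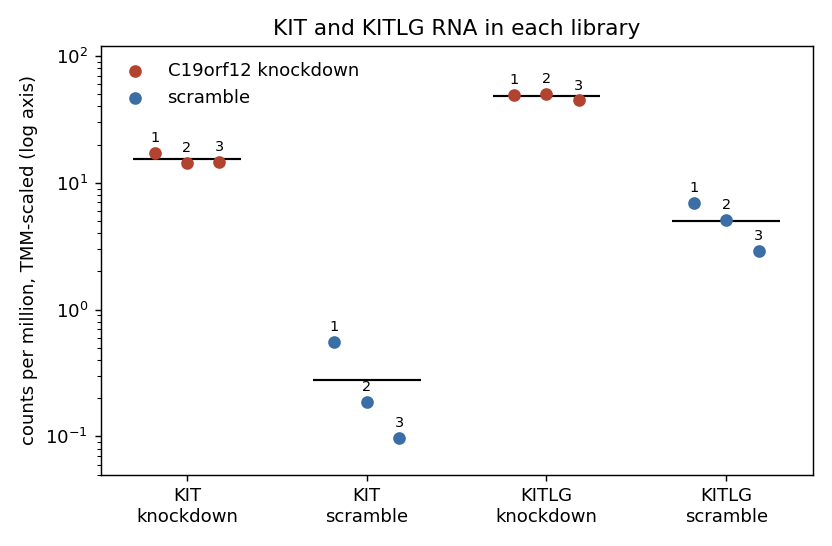
KIT and KITLG in CPM with TMM factors (vertical log axis), for knockdown libraries (red) and scramble libraries (blue); points are single libraries with their replicate number and lines are means. The knockdown libraries sit at 14.3 to 17.1 CPM for KIT and 44.6 to 50.3 CPM for KITLG, above every scramble library of the same gene.

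Part of the low value of scramble replicate 3 was shared with other genes of like base composition. KITLG transcripts have a GC content of 36.3% and KIT transcripts of 43.9%. KITLG in scramble replicate 3 lay -0.99 on the log2 CPM scale from the mean of scramble replicates 1 and 2, and the median of the 386 genes within 1 percentage point of its GC content lay at -1.04. KIT lay at -0.88, and the median of the 1263 genes near its GC content at -0.52. These log2 values include an added prior count of 2. That makes the shift of KIT, which rests on counts of 6, 2 and 1, smaller than its CPM values alone would give. With a correction for GC content and transcript length in each library, the log2 fold change was 5.54 for KIT and 3.10 for KITLG. Over the genes within 1 point of GC content, the median log2 fold change between knockdown and scramble was 0.13 for the KITLG window and 0.13 for the KIT window.

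**Figure D2:**
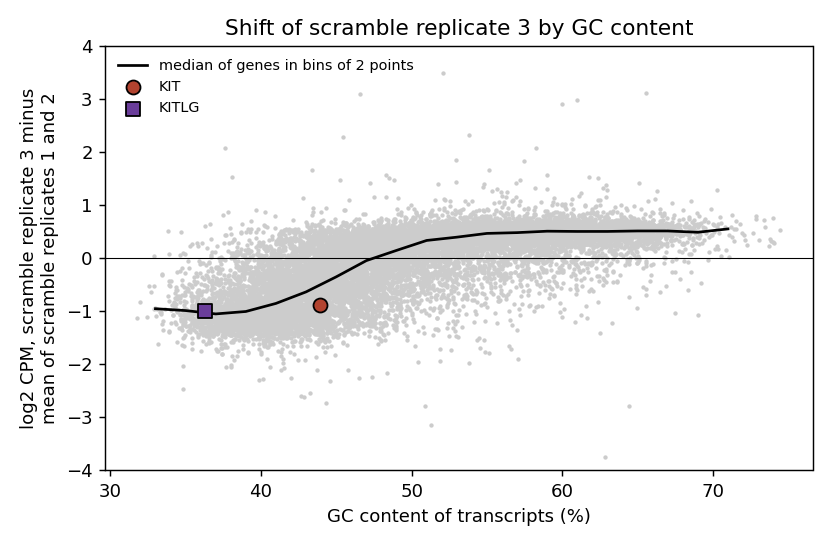
Difference in log2 CPM between scramble replicate 3 and the mean of scramble replicates 1 and 2 (vertical axis) against GC content of transcripts in percent (horizontal axis), for all tested genes with a GC value (grey), their median in bins (line), KIT (circle) and KITLG (square). KITLG at -0.99 lies on the line for its GC content, where the median is -1.04, and KIT at -0.88 lies below the median of -0.52 for its own. The log2 values include a prior count of 2, which makes the shift of KIT smaller.

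On the FPKM scale, which the authors scaled for transcript length and depth and by which genes can be set side by side, the ligand was above the receptor in every library. KIT had 3.2, 2.67 and 2.72 FPKM in knockdown replicates 1, 2 and 3 and 0.11, 0.04 and 0.02 FPKM in scramble replicates 1, 2 and 3. KITLG had 8.79, 8.93 and 7.96 FPKM in the knockdown libraries and 1.34, 0.97 and 0.51 FPKM in the scramble libraries. The level of KITLG over that of KIT was 2.75, 3.34 and 2.93 in the knockdown libraries and 12.2, 24.2 and 25.5 in the scramble libraries. The ratio was thus smaller in each knockdown library, although the scramble ratios rest on KIT values written to 2 decimals and on 1 to 6 counts. Among tested genes, 27.8% had a lower mean FPKM than KIT and 53% a lower one than KITLG in knockdown libraries, against 0.155% and 11.4% in scramble libraries. KIT passed the filter on low counts through its knockdown libraries alone. Genes with few counts in both groups are not among those tested, so the low place of KIT in scramble libraries follows from that filter.

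The deposited mean transcript length tells which form the counts were assigned to. For KIT it was 5178 bases in all 6 libraries, a whole number in each, so the mean did not move between groups; which of the 2 listed transcripts has this length was not settled here. For KITLG it was 5428, 5446.87 and 5440.18 bases in knockdown replicates 1, 2 and 3 and 5376, 5460 and 5460 bases in scramble replicates 1, 2 and 3. The lowest and highest of these differ by 84 bases, the length of exon 6. If 5376 and 5460 are taken as the lengths of the shorter and the longer form, the longer form made up 61.9%, 84.4% and 76.4% of KITLG transcripts in the knockdown libraries (74.2% ± 11.4, SD, n = 3) and 0%, 100% and 100% in the scramble libraries. All 3 knockdown libraries were thus mixtures with more of the longer form, while each scramble library was assigned wholly to a single form and the scramble libraries differed from each other. Few reads can carry this information, since 84 bases are 1.54% of the longer form. For the counts assigned to that form this comes to about 4.69, 6.54 and 5.28 counts in the knockdown libraries and under 1 count in each scramble library. These are estimates that rest on the assigned shares, not reads counted on the exon. Reads across the junction that skips the exon are not in them. No difference in form use between the groups was detectable at this depth.

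**Figure D3:**
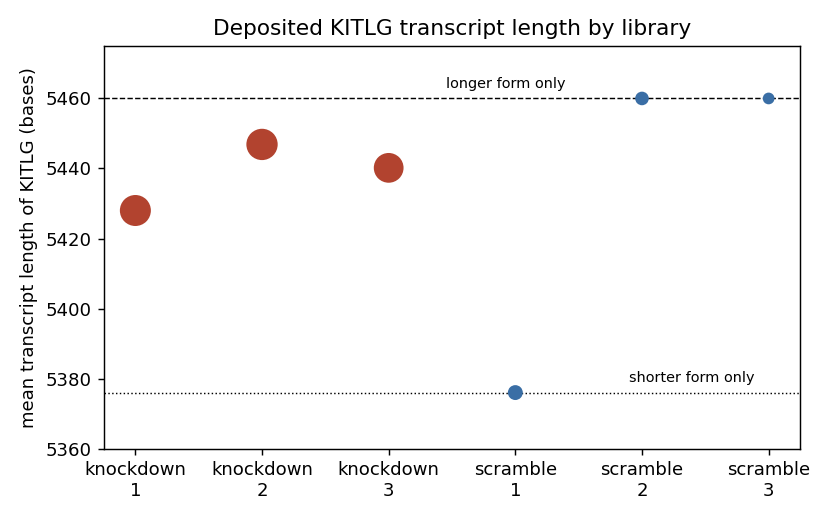
Mean KITLG transcript length in bases as deposited (vertical axis, which does not start at 0) for each library, knockdown in red and scramble in blue; the area of a point grows with the KITLG count, and lines mark the lengths taken for the shorter and longer form. Knockdown libraries lie between the lines at 5428 to 5446.87 bases and scramble libraries on them at 5376 or 5460.

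Of the receptors most like KIT, none that was tested passed. The list held the other type III receptors PDGFRA, PDGFRB, CSF1R and FLT3 and the VEGF receptors KDR, FLT1 and FLT4. PDGFRA, PDGFRB, CSF1R, FLT3 and KDR were at most 0.15 FPKM in any library and did not pass the filter on low counts. FLT1 was at 1.34, 1.46 and 1.3 FPKM in knockdown and 1.26, 1.1 and 0.92 FPKM in scramble libraries (log2 fold change 0.39, edgeR adjusted p = 0.29). FLT4 was at 0.66, 0.78 and 0.46 FPKM in knockdown and 0.8, 1.02 and 1.16 FPKM in scramble libraries (log2 fold change -0.66, edgeR adjusted p = 0.178). By edgeR 0 of the 2 were called, where 11.5% of all genes tested were. An unadjusted p under 0.05 was seen for 1 of them, and DESeq2 and limma-voom called 0. In the knockdown libraries KIT therefore stood above all 7 of these receptors per length, and in the scramble libraries FLT1 and FLT4 stood well above it. PDGFRA, at 0.15, 0.06 and 0.01 FPKM in scramble replicates 1, 2 and 3, was near KIT there (0.11, 0.04 and 0.02 FPKM), and single values of the others were too low to be ordered.

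Of the genes of KIT signalling that were called, most were lower in knockdown cells. The lists held 112 genes other than KIT and KITLG, of which 101 were tested. Of these, 2 were higher and 19 lower in knockdown libraries by edgeR's quasi-likelihood test (adjusted p under 0.05), where 11.5% of all genes tested were called, 5.89% higher and 5.64% lower. DESeq2 called 3 higher and 17 lower, where 12.8% of all genes were called, 6.49% higher and 6.27% lower. The median log2 fold change was -0.05, against 0.02 over all genes. Without scramble replicate 3, 23 were higher and 43 lower, where 49.5% of all genes were called, 25.7% higher and 23.8% lower. The all-gene share thus grew along with the list's. With the GC content and length correction 12 were higher and 32 lower of 100, where 34.1% of all genes were called, 15.4% higher and 18.7% lower. Leaving out knockdown replicate 1, 2 or 3 gave 0 higher in each case and 6, 6 and 5 lower. Calls over all genes then fell to 766, 742 and 729, from 1708 with all 6 libraries. Without scramble replicate 1 or 2, 1 and 0 were higher and 14 lower in each case, where 1344 and 1252 genes were called over all. These lists were chosen with earlier results of these data known.

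Genes that ERK activity switches on held 7 of the 19 lower calls. Of 14 such genes tested, 7 fell and 1 rose (median log2 fold change -0.59), where 5.64% of all genes fell and 5.89% rose. Without scramble replicate 3 there were 9 lower and 4 higher, where 23.8% of all genes were lower and 25.7% higher. DUSP6, a phosphatase that removes phosphate from ERK, was at 19.8, 21.5 and 20.8 CPM in knockdown and 45.1, 42.8 and 48.4 CPM in scramble libraries. It did not overlap between the groups, and scramble replicate 3 was close to the other scramble libraries (log2 fold change -1.14, SE 0.15, edgeR adjusted p = 0.00159). The AP-1 gene JUN fell to 35.2 ± 1.67 CPM in knockdown libraries, against 82.2 ± 15.4 CPM in scramble libraries (SD, n = 3 each; log2 fold change -1.22, edgeR adjusted p = 0.00243). FOSL1, another AP-1 gene, averaged 12.6 ± 0.693 CPM in knockdown and 28.7 ± 5.76 CPM in scramble libraries (-1.18, edgeR adjusted p = 0.00385). The transcription factor gene ETV5 averaged 53.4 ± 1.67 CPM in knockdown and 105 ± 20 CPM in scramble libraries (-0.97, edgeR adjusted p = 0.00715).

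The member that rose was FOS, named after its values were seen. It averaged 12 ± 0.0422 CPM in knockdown and 7.09 ± 1.6 CPM in scramble libraries (SD, n = 3 each), and the groups did not overlap (log2 fold change 0.76, edgeR adjusted p = 0.0355). DUSP4, a nuclear phosphatase of ERK, was higher in each knockdown library but did not pass (0.46, edgeR adjusted p = 0.0683), and MYC was at -0.52 (edgeR adjusted p = 0.0877); without scramble replicate 3 their adjusted p-values were 6.53e-12 and 4.49e-07. The calls of DUSP6, JUN and FOSL1 held in every alternative run. The call of ETV5 was lost without knockdown replicate 2 (adjusted p = 0.0564) or 3 (0.0591). That of FOS was lost when any library other than scramble replicate 3 was left out (0.102 to 0.141). The list has a median GC content of 53.9%, and relative to scramble replicates 1 and 2 its genes were shifted in scramble replicate 3 by a median of 0.45 (log2).

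**Figure D4:**
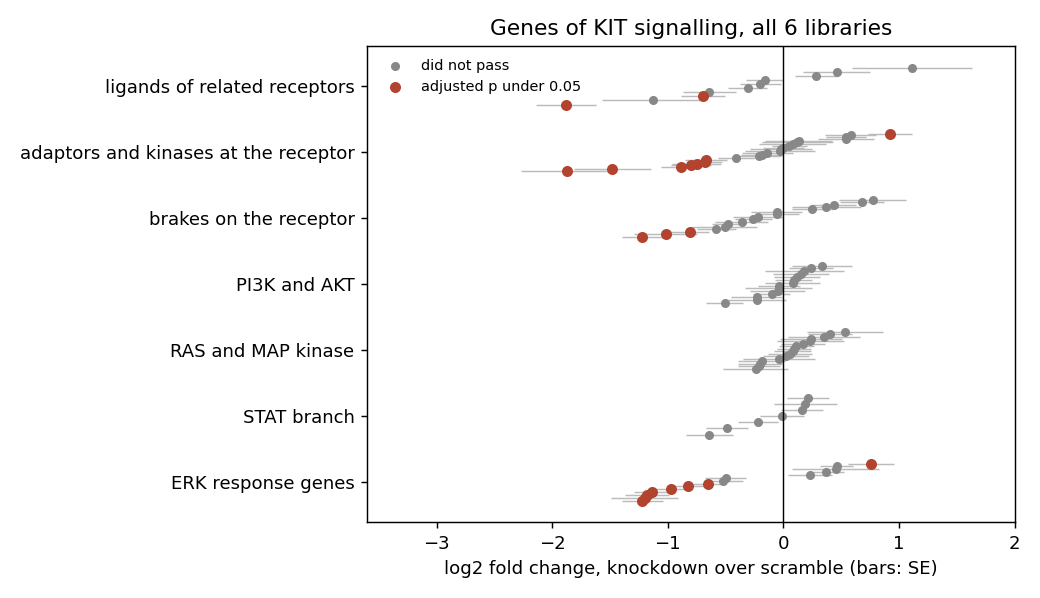
Log2 fold changes of knockdown over scramble (horizontal axis, bars are SE) for tested genes of 7 lists of KIT signalling, 1 point a gene and 1 row a list; red points passed an adjusted p of 0.05 by edgeR. ERK response genes show 7 red points to the left of 0 and 1 to the right, and the rows of PI3K and AKT, RAS and MAP kinase and STAT genes show no red point.

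Among the brakes on receptor signalling the Sprouty genes were lower. Sprouty proteins dampen RAS and ERK signalling below receptor tyrosine kinases and are themselves induced by it. Of 16 tested genes of this list, which also held ubiquitin ligases, phosphatases, inhibitory adaptors and shedding proteases, 3 fell and 0 rose (median log2 fold change -0.24). Over all genes 5.64% fell and 5.89% rose. There were 10 lower and 3 higher without scramble replicate 3, where 23.8% of all genes were lower and 25.7% higher. With the GC content and length correction 8 were lower and 3 higher, where 18.7% of all genes were lower and 15.4% higher. SPRY2 was at 12.5, 12.1 and 12.3 CPM in knockdown and 26.8, 24.7 and 34.4 CPM in scramble libraries (-1.22, SE 0.18, edgeR adjusted p = 0.0026). SPRY4 averaged 15.2 ± 1.8 CPM in knockdown and 26.7 ± 2.48 CPM in scramble libraries (-0.81, edgeR adjusted p = 0.0141), and SPRY1 averaged 1.3 ± 0.168 CPM in knockdown and 2.63 ± 0.442 CPM in scramble libraries (-1.02, edgeR adjusted p = 0.0399). The call of SPRY2 held in every alternative run. That of SPRY4 was lost without knockdown replicate 1, 2 or 3 (0.0526, 0.0965 and 0.11), and that of SPRY1 was lost without any 1 library other than scramble replicate 3 (0.103 to 0.168), with DESeq2 (0.108) and with the replicate block (0.074). PRKCA, a kinase that limits KIT signalling, was lower in each knockdown library but did not pass (-0.48, edgeR adjusted p = 0.0613; -0.55, adjusted p = 7.25e-11 without scramble replicate 3). PTPRJ, a receptor-type phosphatase, was at 0.25 (edgeR adjusted p = 0.448). ADAM17, named after its values were seen as a protease known to shed KIT, was at 111, 117 and 114 CPM in knockdown and 198, 200 and 89.3 CPM in scramble libraries (-0.51, edgeR adjusted p = 0.294). Its groups overlapped through scramble replicate 3 alone, and without that library it was at -0.80 (adjusted p = 8.05e-13).

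Of 22 tested adaptors and kinases that act at the activated receptor, 7 fell and 1 rose (median log2 fold change -0.08). Over all genes 5.64% fell and 5.89% rose. Leaving out scramble replicate 3 gave 11 lower and 4 higher, where 23.8% of all genes were lower and 25.7% higher. SHC1, which links receptors to RAS, was at 279, 268 and 266 CPM in knockdown and 432, 450 and 625 CPM in scramble libraries (-0.89, SE 0.17, edgeR adjusted p = 0.00989). The docking protein gene GAB2 averaged 11.4 ± 0.289 CPM in knockdown and 19.9 ± 2.89 CPM in scramble libraries (-0.80, edgeR adjusted p = 0.0155). VAV1, an exchange factor known from blood cells, averaged 0.765 ± 0.462 CPM in knockdown and 2.84 ± 0.737 CPM in scramble libraries (-1.87, edgeR adjusted p = 0.0163). GRB7, an adaptor that binds KIT, was the member that rose, to 20.5 ± 1.95 CPM in knockdown libraries against 10.8 ± 1.97 CPM in scramble libraries (0.92, edgeR adjusted p = 0.0121). GRB2, the adaptor that carries SOS to receptors, averaged 152 ± 0.239 CPM in knockdown and 152 ± 32.7 CPM in scramble libraries (edgeR adjusted p = 0.997). CRKL, another adaptor, was at -0.41 (edgeR adjusted p = 0.139). Both were called by edgeR without scramble replicate 3, GRB2 higher at 0.19 (adjusted p = 0.0018) and CRKL lower at -0.29 (adjusted p = 5.1e-05). The calls of SHC1 and GAB2 were lost without knockdown replicate 1, 2 or 3 (0.0592 to 0.101), that of VAV1 without knockdown replicate 1 (0.0804) or 3 (0.0844), and that of GRB7 without scramble replicate 2 (0.0511) or knockdown replicate 1, 2 or 3 (0.0533, 0.0801 and 0.0524).

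The relay branches below the adaptors held no gene called by edgeR over all 6 libraries. By edgeR 0 of 14 PI3K and AKT genes, 0 of 16 RAS and MAP kinase genes and 0 of 7 STAT branch genes were called. The share over all genes tested was 11.5%, at which lists this small would hold few calls. At an unadjusted p under 0.05 there were 1, 0 and 2, DESeq2 called 0, 0 and 1, and limma-voom called 0 in each. AKT1 was at 135, 131 and 131 CPM in knockdown and 95.4, 97 and 144 CPM in scramble libraries, and the groups overlapped through scramble replicate 3; without it AKT1 was at 0.46 (edgeR adjusted p = 3.83e-08). NF1, which switches RAS off, was at 185, 178 and 190 CPM in knockdown and 186, 203 and 82.1 CPM in scramble libraries. Without scramble replicate 3, 4 of the PI3K and AKT genes were higher and 4 lower, 5 of the RAS and MAP kinase genes higher and 2 lower, and 1 of the STAT branch higher and 3 lower. At that setting 25.7% of all genes were called higher and 23.8% lower. Growth factors for the related receptors had 2 lower and 0 higher of 10 tested, where 5.64% of all genes were lower and 5.89% higher. Leaving out scramble replicate 3 gave 4 lower and 2 higher, where 23.8% and 25.7% were. PDGFB, a ligand of the PDGF receptors, averaged 2.56 ± 0.487 CPM in knockdown and 9.49 ± 2.44 CPM in scramble libraries (-1.88, SE 0.26, edgeR adjusted p = 0.0017), a call that held in every alternative run. CSF1, the ligand of CSF1R, averaged 16.1 ± 1.15 CPM in knockdown and 26.2 ± 5.57 CPM in scramble libraries (-0.70, edgeR adjusted p = 0.0448); this call was lost with the replicate block (0.0576), with limma-voom (0.0517), without scramble replicate 2 (0.0648) and without each knockdown library (0.139 to 0.202).

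Of 15 factors tied to KIT transcription in other cell types 8 were tested, and 0 were called by edgeR, DESeq2 or limma-voom, with 2 at an unadjusted p under 0.05. Over all genes edgeR called 11.5%, DESeq2 12.8% and limma-voom 1659 genes, and by edgeR 23.8% were called lower without scramble replicate 3. No all-gene share was worked out at the unadjusted p. Without scramble replicate 3, 2 of the 8 were called lower by edgeR, MITF at -0.32 (adjusted p = 0.0351) and RUNX1, a blood cell factor named after its values were seen, at -0.62 (adjusted p = 1.98e-07). MITF, the pigment and mast cell factor tied to KIT transcription, was at 19.1, 21.9 and 14.2 CPM in knockdown and 22.4, 23.5 and 7.65 CPM in scramble libraries. SP1, which binds GC boxes such as those printed above, averaged 131 ± 4.54 CPM in knockdown and 123 ± 31.3 CPM in scramble libraries, and TFAP2A, an AP-2 factor, was at 0.06 (edgeR adjusted p = 0.841). TAL1, LMO2, GATA1, MYB and HAND1 did not pass the filter on low counts. LYL1 and FOXF1 were listed in no file.

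Most markers of mast cells and of blood cells, which can carry KIT, were at or near 0. MS4A2, PTPRC and some melanocyte markers were not. Of 8 mast cell markers, TPSAB1, TPSB2, CPA3 and CMA1 were at 0 in all 6 libraries, and the summed level of the list was 2 to 2.68 CPM in knockdown and 1.3 to 1.76 CPM in scramble libraries. Most of that sum was MS4A2, at 2.1, 1.9 and 2.58 CPM in knockdown and 1.67, 1.3 and 1.65 CPM in scramble libraries. Its groups did not overlap, and it was not called (log2 fold change 0.51, edgeR adjusted p = 0.276). Of 7 melanocyte markers TYR and DCT were at 0 in all libraries; the list summed to 21.7 to 29.5 CPM in knockdown and 14.9 to 29.5 CPM in scramble libraries, and most of that sum was MITF. MLANA, a melanosome protein gene, was at 5.3, 5.09 and 4.47 CPM in knockdown and 3.9, 4.46 and 4.16 CPM in scramble libraries. PMEL, another melanosome gene, named after its values were seen, was at 2.6, 2.5 and 2.98 CPM in knockdown and 1.76, 1.49 and 2.91 CPM in scramble libraries. The groups overlapped for PMEL and did not for MLANA, and TYRP1 and SOX10 were at no more than 0.194 CPM in any library. The part of these genes in the KIT result was not tested. Of 6 blood progenitor and leukocyte markers LYL1 was at 0 in all libraries, and the list summed to 1.3 to 2 CPM in knockdown and 1.16 to 2.04 CPM in scramble libraries. Most of that sum was PTPRC, whose groups overlapped. A gene at 0 counts may still have been present at up to 3 counts, or 0.3 CPM. By edgeR, DESeq2 and limma-voom 0 of the 5 tested markers were called, and 0 had an unadjusted p under 0.05. Over all genes edgeR called 11.5%, DESeq2 12.8% and limma-voom 1659 genes, and no share was worked out at the unadjusted p. Without scramble replicate 3 MITF was called lower.

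No tested neighbour of either gene was called higher by edgeR over all 6 libraries, without covariates or correction for GC content. KIT lies between PDGFRA and KDR in the order of protein-coding genes, and both neighbours were at most 0.15 FPKM in any library. Of 10 tested genes around KIT, 1 fell and 0 rose (median log2 fold change 0.03), where 5.64% of all genes fell and 5.89% rose. CHIC2, a gene on the PDGFRA side, was at 6.4, 5.29 and 5.86 CPM in knockdown and 9.38, 9.65 and 11.3 CPM in scramble libraries (-0.79, edgeR adjusted p = 0.0209), a call lost without knockdown replicate 1, 2 or 3 (0.0788, 0.127 and 0.11). KITLG lies between TMTC3 and DUSP6, and DUSP6 was the gene of 7 tested around KITLG that fell, while 0 rose (median log2 fold change 0.30). TMTC3 was at 62.2, 64.0 and 60.6 CPM in knockdown and 50.6, 44.0 and 20.7 CPM in scramble libraries (0.69, edgeR adjusted p = 0.165). GALNT4, a gene of the same stretch whose counts are uncertain because its transcripts overlap those of POC1B, was at 76.6, 65.5 and 62.8 CPM in knockdown and 39.5, 44.6 and 19.2 CPM in scramble libraries (0.99, edgeR adjusted p = 0.0535). Without scramble replicate 3, 0 of 10 genes around KIT were higher and 3 lower, and 2 of 7 around KITLG, TMTC3 and GALNT4, were higher and 1 lower, where 25.7% of all genes were called higher and 23.8% lower. With the GC content and length correction, 2 of 7 around KITLG were higher and 1 lower, and 0 of 10 around KIT were higher and 2 lower. Over all genes 15.4% were higher and 18.7% lower with that correction. Relative to scramble replicates 1 and 2, the genes around KITLG were shifted in scramble replicate 3 by a median of -0.93 (log2).

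The genes whose profile over the 6 libraries was most like that of each member were found by the smallest root mean square difference of log2 CPM after centring each gene. The search covered 10846 protein-coding genes that averaged 5 CPM or more. Noncoding genes and genes with provisional symbols were left out. For KIT these were the adhesion molecule gene CEACAM6 (0.305), ANO3 (0.318), the RNA-binding protein gene CELF2 (0.320), the potassium channel gene KCNJ16 (0.332) and the fibrinogen gene FGG (0.343). They averaged 1900, 21.6, 10.5, 37.6 and 595 CPM in knockdown libraries and 60.8, 0.374, 0.125, 1.18 and 19.1 CPM in scramble libraries. For KITLG they included SCEL (0.199), the chemokine gene CCL22 (0.199), TMEM178B (0.240) and RIMKLB (0.254). These averaged 43.8, 32.8, 46.7 and 526 CPM in knockdown libraries and 3.65, 4.16, 5.6 and 74.9 CPM in scramble libraries. KIT and KITLG differed from each other by 0.942 on the same measure, so each had closer profiles elsewhere. The log2 CPM values include a prior count of 2, which compresses the profile of KIT at its scramble counts of 6, 2 and 1. The order of the genes closest to KIT may depend on that setting. All these points share the same 6 libraries and the same comparison.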

How the data were processed

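Polyadenylated RNA of A549 cells was sequenced in 3 knockdown and 3 scramble libraries. The authors deposited RSEM expected counts (estimated counts, not always whole) and FPKM per gene, per the file headers, with the mean transcript length. BWA, Bowtie2, RSEM and build hg19 are named in the submitters' processing notes; which tool did which step, and in what version, is not given in the sources used here. Genes missing from a file were taken as 0. Of 20824 Entrez IDs 20727 were matched to symbols; GRCh38 annotation was used for names, gene order and sequences.

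After rounding, expected counts went into edgeR 4.0.16 (R 4.3.3): filterByExpr (minimum count 10, total 15), TMM, glmQLFit and glmQLFTest on all 6 libraries without covariates, Benjamini-Hochberg adjusted over 14812 genes, called under 0.05. The coefficient of variation between replicates was 18.9%, and 2.97% without scramble replicate 3, so small differences pass there. SEs come from the F statistic. FPKM differences use log2(FPKM + 0.1), and log2 CPM values include a prior count of 2. DESeq2 1.42.0 and limma 3.58.1 were alternatives; the GC content and length correction used splines with 5 degrees of freedom. Python 3.11.15 with matplotlib 3.10.9 drew the figures, and pandas 2.3.3 and numpy 2.4.6 made the tables. The procedure was tested on simulated data. These had the same spread in every library and no drift with GC content, so the test does not cover the shift of scramble replicate 3.

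The members and lists were chosen with earlier results of these data known. Named are the members, C19orf12, up to 4 called and 2 uncalled genes of each list and the 5 most similar profiles of each member; others are marked, and some genes that this rule or the lists take in are not reported here. Libraries totalled 10229890 to 10647587 counts, and 3 counts, the limit behind a 0, are 0.3 CPM.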

Additional observations from a re-analysis of the deposited data

How the results depend on the processing

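The log2 fold changes of KIT and KITLG kept their direction in all alternatives. KIT ranged from 5.32 to 6.62 when a library was left out, with 6.62 without scramble replicate 1, and KITLG from 2.99 to 3.57; under other scalings, filters, tools, the replicate block and the GC content and length correction KIT ran from 5.54 to 5.81 and KITLG from 3.10 to 3.34. All genes called numbered 1708 in the analysis reported, 4858 with the GC content and length correction and 4175 with that correction and the replicate block, and 729 to 7439 when a library was left out. Pathway genes called higher were 12 and 13 under these corrections and 0 to 23 when a library was left out; those called lower were 32 and 31, and 5 to 43. With log2(FPKM + 1) the difference of KIT was 1.87 in place of 4.28 and that of KITLG 2.32 in place of 3.14, so the larger difference was then that of KITLG, and KITLG minus KIT was 1.31 in knockdown and 0.85 in scramble libraries in place of 1.55 and 2.69; the larger pseudocount exceeds every scramble FPKM of KIT. The difference in mean KITLG length was 6.3 bases and ran from -21.7 to 20.3 when a library was left out, so it had no stable sign. Replicate numbers did not pair the libraries (correlations of deviations -0.0239, -0.0181 and -0.0232), and the replicate block gave 1654 genes called, 3 pathway genes higher and 15 lower. Of 28 called genes followed, 17 held in every alternative and 0 reversed. FPKM and length results with libraries other than scramble replicate 3 left out, and list counts under the correction, were added after the data were seen. Scramble counts of 1 to 6 limit the fold of KIT. An estimate of under 1 count on exon 6 in each scramble library limits the forms of KITLG.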
